A study of Mus musculus with 12 samples.

Results

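Myeloid-derived suppressor cells (MDSCs) carrying rapamycin-loaded nanoparticles (CITED) were compared with MDSCs carrying the same kind of particle without the drug (MDSC-NP-Blk). The comparison covered 4 CITED and 4 MDSC-NP-Blk libraries of a series of 12, and every gene symbol with at least 2 counts over the 12 libraries was taken, which kept 17676 of the 35303 symbols in the table. All groups came from bone marrow of wild-type C57BL/6 mice (females aged 6 to 10 weeks), which was cultured with the cytokines IL-6 and GM-CSF at 40 ng/ml each. Nonadherent cells were taken on day 3 and selected for CD11b and Gr1. The cells of both particle groups had been fed an azido sugar, so that poly(lactide-co-glycolide) (PLGA) particles bearing a DBCO group could be clicked to their surface. Both were then kept for 24 hours with IL-6 at 40 ng/ml. Thus IL-6, the azido sugar, the polymer, and the click linkage were common to the compared groups, which differed in the rapamycin load. The remaining 4 libraries, from MDSCs without particles (MDSC), served as a reference level. The labels name the central nervous system as tissue, whereas the methods describe only cultured marrow cells. The titles and the study call the 4 libraries of a group biological replicates, without saying whether each came from its own mouse or its own culture.

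Rapamycin binds the immunophilin FKBP12 (gene Fkbp1a), and this pair docks on the kinase mTOR within mTOR complex 1. That complex is held active by growth factors and amino acids at the lysosome surface, where it drives ribosome production, translation, glycolysis, and the synthesis of nucleotides and lipids, and holds back autophagy and the lysosomal transcription factor TFEB. MDSCs are immature neutrophil-like and monocyte-like cells that suppress T cells, and the culture used here yields a mixture of both.

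Totals of the 8 libraries ran from 20604809 to 37855478 counts, so that 3 counts stood for 7.92e-06% to 1.46e-05% of a library, and the biological coefficient of variation was 9.03%. Of 9 MDSC markers 2 rose and 4 fell (10.5% and 11.4% of all genes tested), and all but 1 had a mean above 50. Itgam, which encodes CD11b and shares 91.3% of its words of 31 bases with other genes, had normalized counts of 68935, 69517, 72108, and 69564 in the CITED replicates 1 to 4 and 56020, 64468, 65793, and 59331 in the MDSC-NP-Blk replicates (log2 fold change 0.19 ± 0.044 (SE), adjusted p = 0.0014). Ly6g, whose product is the granulocytic target of the Gr1 antibody, differed by less than the spread between replicates (4573 ± 137 in CITED and 4615 ± 435 in MDSC-NP-Blk, mean ± SD, n = 4 each, log2 fold change −0.013, adjusted p = 0.936). The monocytic receptor gene Csf1r did not pass the test (22444, 22892, 22650, and 22292 against 20662, 21854, 21646, and 20506, log2 fold change 0.092, adjusted p = 0.138), but passed without blank replicates 2 and 3 (0.13, adjusted p = 0.0364). Csf3r, the receptor of granulocyte colony-stimulating factor, rose (0.20, adjusted p = 0.0054), and the low Ly6c1 fell (16.3 ± 9.3 against 41.2 ± 5.9, log2 fold change −1.36, adjusted p = 0.0097). The abundant Ly6c2 (−0.73), S100a9 (−0.44), and S100a8 (−0.33), described below, fell as well. Summed over the 9 markers, normalized counts were 658861 to 752192 in CITED and 845033 to 892411 in MDSC-NP-Blk. A normalized count is a count scaled to the mean library. A log2 fold change is CITED over MDSC-NP-Blk throughout unless another pair is named, and adjusted p-values are from edgeR's quasi-likelihood test over all 17676 genes. "Rose" and "fell" are used for genes with an adjusted p below 0.05, and "called" for those that also changed by at least 1 on the log2 scale.

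The blank libraries did not form 1 tight group. Replicates 1 and 4 held more of several mRNAs than replicates 2 and 3, and less of others. The nitric oxide synthase gene Nos2 had 2844, 1700, 1375, and 3731 normalized counts in the 4 blank libraries, and the glucose transporter gene Slc2a3 had 19872, 16022, 14658, and 22311. In the plot of 12 genes relative to their blank mean, Nos2, Selenbp1, Hif3a, Smtnl2, Mgarp, and Slc2a3 spread in this way, whereas Elane, Gpnmb, and Cdk1 did not. Mpo and C1qa went the other way, lower in replicates 1 and 4. So did the summed normalized counts of mitotic genes (81931, 91028, 93025, and 83299 in blank replicates 1 to 4). The libraries also differed in the trend of expression with transcript length. Its rank correlation across 10543 genes was −0.42, −0.047, 0.092, and −0.24 in the blank replicates and −0.34, −0.21, −0.19, and −0.25 in the CITED replicates, which describes the libraries and is not a test. Values without replicates 1 and 4, and without replicates 2 and 3, are therefore given beside many of the results. The first principal component of the 500 most variable genes, with 52.7% of the variance, separated CITED from MDSC-NP-Blk in all 8 libraries. The second, with 15.3%, set blank replicate 1 (13.3) apart from replicate 3 (−11.4), with replicates 2 and 4 near 0 (−0.45 and 0.48).

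**Figure D1:**
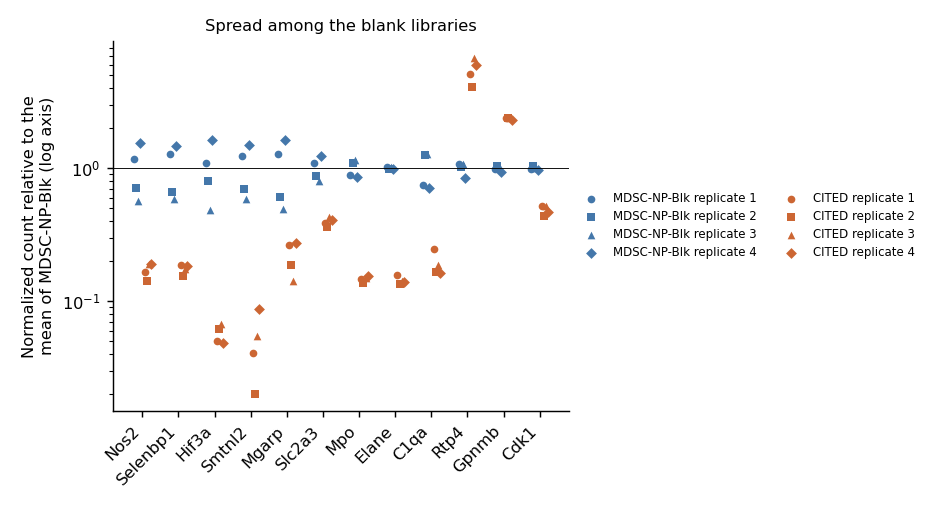
Normalized counts of 12 genes in each MDSC-NP-Blk (blue) and CITED (orange) library, divided by the gene's mean in MDSC-NP-Blk (log axis, symbols mark replicates 1 to 4). For Nos2, Selenbp1, Hif3a, Smtnl2, Mgarp, and Slc2a3 the blank replicates 1 and 4 lie above replicates 2 and 3, and every CITED library lies below all blank libraries.

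Rapamycin load was accompanied by more genes with a large fall than a large rise. Of 17676 genes, 469 (2.65%) were called, 115 higher in CITED (0.651%) and 354 lower (2.00%). Without the fold requirement, 3883 genes (22.0%) passed the test, 1862 of them higher (10.5%) and 2021 lower (11.4%). Among the 10464 genes with a mean normalized count above 50, 1792 (17.1%) rose and 1869 (17.9%) fell, and the median log2 fold change was 0.0092. Backgrounds given with lists below are the shares over all genes tested, 10.5% rising and 11.4% falling. In most lists most members had a mean above 50, where the shares are 17.1% and 17.9%. A list count near either pair of shares does not set the list apart. Of the called genes, 395 showed no overlap between the 4 CITED and the 4 blank libraries, and 21.2% of all genes tested did so. Called changes of more than 4-fold numbered 43 higher and 84 lower. Low expression was common among called genes, since 200 of them had a mean of 50 or less. Without blank replicates 1 and 4 the called genes numbered 135 higher and 378 lower, and without replicates 2 and 3 they numbered 95 higher and 302 lower.

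**Figure D2:**
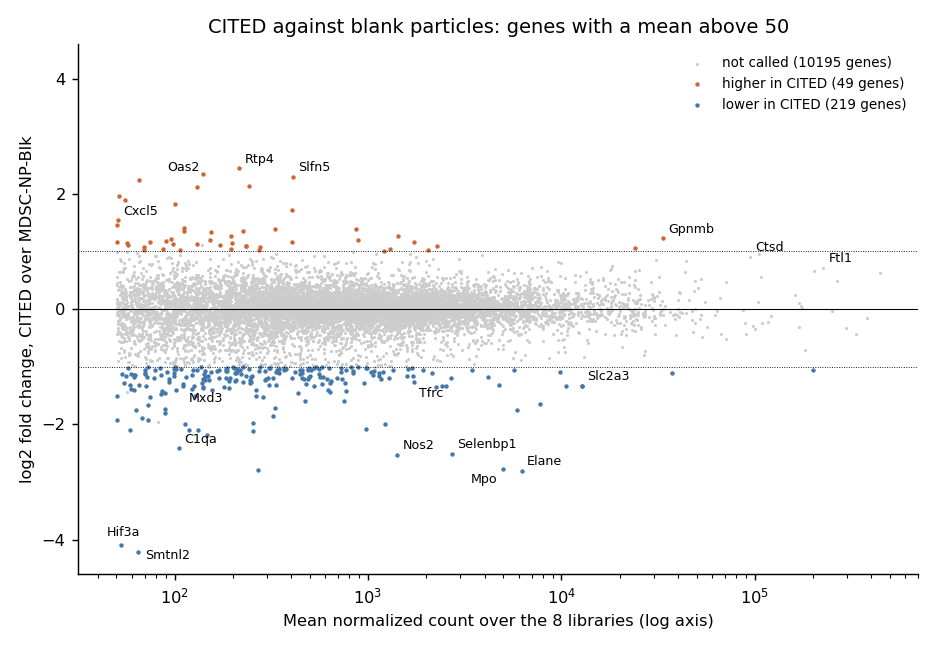
Each point is a gene with a mean normalized count above 50 over the 8 libraries (log axis, 10463 genes plotted, 1 outside the axis), set against its log2 fold change in CITED over MDSC-NP-Blk. Called genes are orange (49 higher) or blue (219 lower), dotted lines mark a log2 fold change of 1 in either direction, and the largest falls among abundant genes belong to Elane, Mpo, Nos2, and Selenbp1.

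The largest increases, ranked among called genes with a mean above 50 and no overlap between the groups, were led by interferon-stimulated genes. Rtp4, an interferon-induced antiviral gene at chr16:23337811-23432972 (GRCm39), had 337, 273, 447, and 395 normalized counts in CITED and 71.4, 67.6, 71.9, and 56.1 in MDSC-NP-Blk (log2 fold change 2.44 ± 0.17 (SE), adjusted p = 1.18e-13), and Slfn5, a Schlafen family gene at chr11:82842100-82855666, had 656, 666, 683, and 699 and 144, 129.6, 144, and 134 (log2 fold change 2.30 ± 0.11 (SE), adjusted p = 5.70e-18). All CITED libraries lay above all blank libraries for both genes. Oas2 (2.34), a sensor of double-stranded RNA, Ifi27l2a (2.13), Usp18 (2.12), which removes the ubiquitin-like protein ISG15 from its targets and dampens interferon signaling, and Oas1a (1.72, 67.9% shared words) were also among the 12 genes with the largest rise by this rule, with adjusted p-values from 8.17e-15 to 3.22e-10. Another was Gvin-ps2 (1.96), a pseudogene of the interferon-inducible very large GTPases that shares 99.1% of its words of 31 bases with other genes. The rest were the calcium/calmodulin-dependent kinase kinase gene Camkk1 (1.89), the orphan receptor gene Gpr27 (1.82), the neutrophil-attracting chemokine gene Cxcl5 (1.55), Rlig1 (1.47), and Lrrc75b (1.41). Of the 12, Camkk1, Rlig1, Lrrc75b, Gpr27, and Oas1a were lower in MDSC-NP-Blk than in MDSC, with log2 fold changes of −1.73, −1.72, −1.20, −0.60, and −0.44. In CITED over MDSC they had 0.16, −0.25, 0.21, 1.22, and 1.29, where each of these comparisons, like all comparisons with MDSC below, shares libraries with the main one.

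The largest falls, ranked in the same way, included Elane, Mpo, the complement genes C1qa and C1qc, and Nos2. Elane, the gene of neutrophil elastase at chr10:79722081-79724051, had 1707, 1477, 1554, and 1506 normalized counts in CITED and 11033, 10697, 11103, and 10778 in MDSC-NP-Blk (log2 fold change −2.80 ± 0.055 (SE), adjusted p = 1.69e-28). Mpo, the gene of myeloperoxidase at chr11:87684407-87695239, had 1277, 1191, 1293, and 1354 and 7730, 9581, 10040, and 7538 (log2 fold change −2.77 ± 0.072 (SE), adjusted p = 5.25e-25). For both genes the highest CITED library lay well below the lowest blank library. Smtnl2, a smoothelin-like gene, had 5.02, 2.45, 6.66, and 10.6 in CITED and 151, 84.8, 71.9, and 182 in MDSC-NP-Blk (log2 fold change −4.21 ± 0.36 (SE), adjusted p = 2.29e-11). Hif3a, a member of the hypoxia-inducible factor family, had 5.02, 6.11, 6.66, and 4.84 and 108, 80, 48, and 163 (log2 fold change −4.10 ± 0.36 (SE), adjusted p = 4.47e-11). These were the largest falls by the naming rule, at low counts in CITED. Nos2, the inducible nitric oxide synthase gene at chr11:78811613-78851080, had 396, 342, 457, and 459.5 in CITED (log2 fold change −2.53 ± 0.18 (SE), adjusted p = 1.84e-13), below every blank value given above. Selenbp1, a selenium-binding protein gene, had 864, 708, 808, and 842 and 5856, 3075, 2723, and 6811 (log2 fold change −2.51 ± 0.17 (SE), adjusted p = 1.18e-13), and shares 61.2% of its words with other genes. The remaining falls among the largest 12 were those of C1qa (−2.42), Mgarp (−2.19), Ear1 (−2.12), C1qc (−2.10), the glypican gene Gpc3 (−2.09), and the ficolin gene Fcnb (−2.08). The size of several depended on the blank libraries. Without blank replicates 1 and 4 the log2 fold changes of Nos2, Selenbp1, Mgarp, and Hif3a were −1.89, −1.85, −1.35, and −3.49, and without replicates 2 and 3 they were −2.98, −2.97, −2.74, and −4.56, all past the test.

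**Figure D3:**
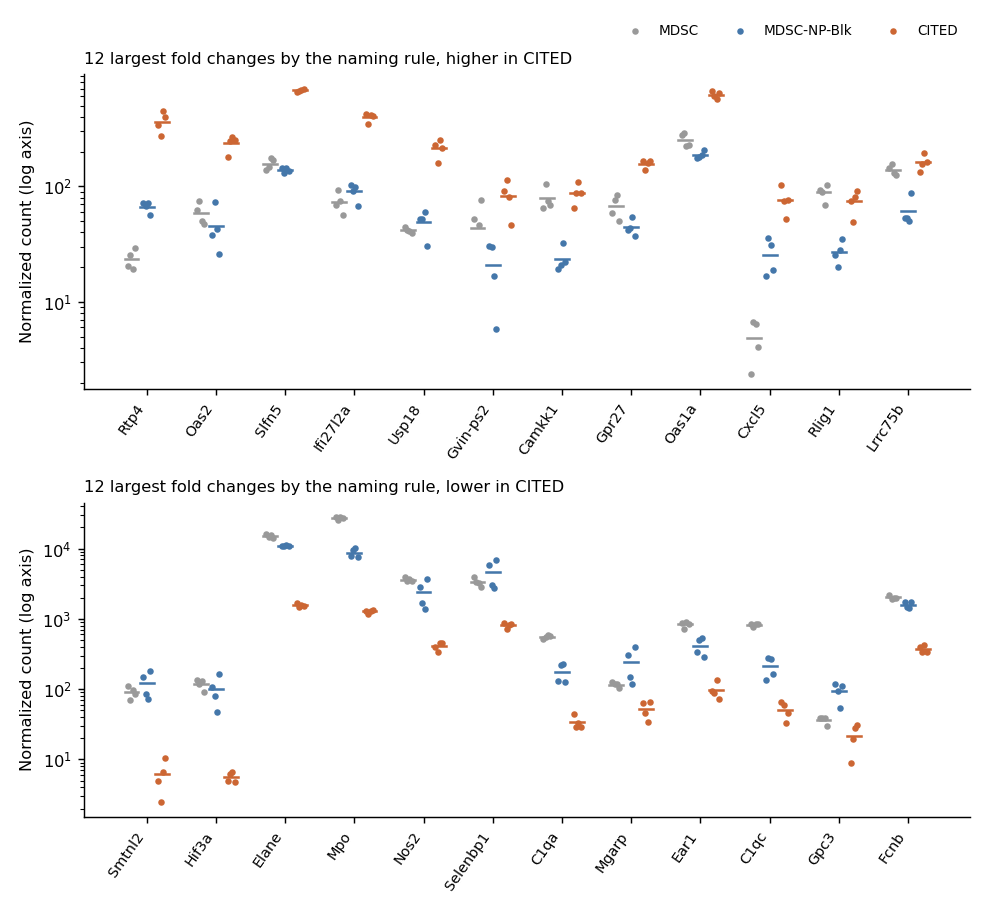
Normalized counts (log axis) in each library of MDSC (gray), MDSC-NP-Blk (blue), and CITED (orange) for the 24 genes that the naming rule took as the largest rises and falls (12 each), with bars at the group means. Points of CITED and MDSC-NP-Blk do not overlap for any of the 24 genes, which the rule required.

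Interferon-stimulated genes, the antiviral program switched on by type I and type II interferons, were higher in CITED. Of 56 tested, 32 rose and 2 fell, and 17 were called higher and 1 lower. The median log2 fold change of those with a mean above 50 was 0.57, against 0.0092 for all such genes and a background of 10.5% rising. Summed over the list, normalized counts were 64591, 63839, 65068, and 65023 in CITED and 47810, 47950, 47565, and 45894 in MDSC-NP-Blk, with no overlap. Effectors carried most of the change, with 26 of 41 rising (median 0.86), among them Oas3 (1073, 1230, 1414, and 1289 against 472, 491, 486, and 472, log2 fold change 1.38 ± 0.082 (SE), adjusted p = 4.89e-15) and Bst2, the gene of the viral tether tetherin (0.96). Of 15 sensors and transcription factors 6 rose, by less, as in Irf7 (0.63, adjusted p = 2.91e-07) and Irf9 (0.62, adjusted p = 2.06e-08), the factors that carry interferon responses into the nucleus. The restriction factor gene Trim30a rose too (0.72, 12% shared words). Exceptions were Ifit2, which inhibits translation of viral RNA and fell (65.2, 94.2, 58.8, and 51.3 against 109.7, 158, 149, and 115, −1.002, adjusted p = 4.32e-05), and Gbp5, a guanylate-binding protein gene (−0.40, adjusted p = 0.0269), whose fall was lost without blank replicates 2 and 3 (adjusted p = 0.118). Ifnb1 itself had too few counts to be tested.

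Promoters of some of these genes are shown because part of the list held the same motif. The motif is named for interferon-stimulated genes, so its frequency in this list is not an independent finding. The interferon-stimulated response element core was searched as GAAA repeated after a gap of 2 bases, on both strands of the 250 bases before the canonical transcription start (GRCm39, GENCODE M39). It was present before 22 of the 56 list members (39.3%), and before 576 of 17635 genes tested (3.27%). It was found before 17 of the 32 members that rose, 5 of the 22 that did not pass the test, and neither of the 2 that fell, whereas over all genes it was found before 3.98% of those that rose and 3.18% of those that fell. The windows below run from 5′ to 3′ in the direction of the gene, with the matched bases in capitals. They cover 80 to 1 bases before the start for Rtp4 (chr16:23428566-23428645 on the plus strand), Oas2 (chr5:120887934-120888013 on the minus strand), Oas3 (chr5:120915730-120915809 on the minus strand), and Usp18 (chr6:121222777-121222856 on the plus strand), and 180 to 101 bases before it for Slfn5 (chr11:82842748-82842827 on the plus strand).
Rtp4: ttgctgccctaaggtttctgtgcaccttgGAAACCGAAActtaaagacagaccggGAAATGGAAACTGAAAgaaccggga
Oas2: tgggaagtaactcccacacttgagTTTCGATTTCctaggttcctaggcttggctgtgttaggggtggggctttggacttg
Oas3: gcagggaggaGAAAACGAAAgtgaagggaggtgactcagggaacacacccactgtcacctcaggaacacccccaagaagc
Usp18: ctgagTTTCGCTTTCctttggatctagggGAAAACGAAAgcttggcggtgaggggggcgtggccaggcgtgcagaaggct
Slfn5: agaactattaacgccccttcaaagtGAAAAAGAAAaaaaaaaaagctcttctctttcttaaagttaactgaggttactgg
Rtp4 held 3 matches, of which 2 overlap, Usp18 held 2 on opposite strands, and Oas2 held its match on the reverse strand. A match describes the letters only and is not evidence of binding.

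Genes of the azurophil granule, which neutrophil precursors fill at the promyelocyte stage with elastase, myeloperoxidase, and related enzymes, fell together. Of 10 tested, 8 fell and none rose, 7 were called, and the median log2 fold change was −1.29 (background 11.4% falling). Besides Elane and Mpo, the proteinase 3 gene Prtn3, which lies beside Elane at chr10:79710310-79719008, had 2711, 2573, 2713, and 2833 in CITED and 9875, 8829, 8382, and 9309 in MDSC-NP-Blk (log2 fold change −1.75 ± 0.053 (SE), adjusted p = 7.43e-23). Gfi1, a repressor required for neutrophil development, had 359.9, 311, 444, and 407 and 895, 883, 842, and 1014 (log2 fold change −1.25 ± 0.091 (SE), adjusted p = 6.46e-13). No library of either group overlapped for these genes, and the list kept 8 falls without blank replicates 1 and 4 and without replicates 2 and 3.

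Genes of the later specific and gelatinase granules moved both ways, 7 of 25 rising and 11 falling (backgrounds 10.5% and 11.4%). Ngp, the neutrophilic granule protein gene, was among the most abundant mRNAs and had 138275, 115896, 133381, and 133205 in CITED and 279033, 262764, 258017, and 278600 in MDSC-NP-Blk (log2 fold change −1.05 ± 0.044 (SE), adjusted p = 5.68e-19), and the cathelicidin gene Camp fell as well (log2 fold change −1.09 ± 0.057 (SE), adjusted p = 2.29e-16). Chil3, a chitinase-like gene of neutrophils and macrophages, fell by less than the called threshold (−0.72, adjusted p = 1.76e-16, 44.8% shared words). In the other direction, the collagenase gene Mmp8 had 129467, 125780, 129624, and 126126 and 84723, 88023, 86748, and 86280 (log2 fold change 0.56 ± 0.038 (SE), adjusted p = 1.09e-13). Mmp9, the gene of gelatinase B, had 52705, 51175, 54670, and 54385 and 32177, 35884, 35446, and 32454 (log2 fold change 0.65 ± 0.05 (SE), adjusted p = 2.33e-12). Adam8, a metalloprotease of the granule membrane, rose to 27261 ± 1457 from 20359 ± 537 (0.42, adjusted p = 2.19e-09). Among 23 neutrophil markers 8 rose and 5 fell, against the same backgrounds. The C-type lectin gene Clec4d (0.58, adjusted p = 5.30e-11) rose, and the alarmin genes S100a8 (−0.33, adjusted p = 1.00e-06) and S100a9 (−0.44, adjusted p = 1.79e-09) fell, all without overlap. Against MDSC without particles, the log2 fold changes of Mmp8 were 0.90 in MDSC-NP-Blk and 1.47 in CITED, and those of Elane were −0.47 and −3.27.

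Markers of stem and progenitor cells were lower in CITED, 9 of 20 falling and 1 rising (backgrounds 11.4% and 10.5%) with a median of −0.50. Myb, a transcription factor of dividing progenitors, had 449, 347, 314, and 421 in CITED and 726, 799.9, 884, and 654 in MDSC-NP-Blk (log2 fold change −1.003 ± 0.097 (SE), adjusted p = 4.88e-10), and the stem cell factor receptor gene Kit fell from 1778 ± 147 to 1149 ± 81 (−0.63, adjusted p = 2.90e-08). In bulk RNA, fewer cells of a type and less RNA per cell cannot be told apart.

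Monocyte and macrophage markers did not move as 1 group, with 8 of 36 rising and 11 falling (backgrounds 10.5% and 11.4%). F13a1, the coagulation factor XIII gene of monocytes, had 489, 587, 468, and 422 in CITED and 2020, 1889, 1794, and 2155 in MDSC-NP-Blk (log2 fold change −2.002 ± 0.079 (SE), adjusted p = 1.03e-19). The monocyte antigen gene Ly6c2 had 21945, 19121, 20506, and 19358 and 34120, 33234, 34046, and 33274 (log2 fold change −0.73 ± 0.044 (SE), adjusted p = 6.82e-15), with 53.9% of its words shared with other genes. The complement C1q genes, made by macrophages, fell without overlap. C1qa had 43.9, 29.3, 33.3, and 29 against 131, 224, 227, and 126 (log2 fold change −2.42 ± 0.19 (SE), adjusted p = 4.09e-12), and C1qb and C1qc had log2 fold changes of −1.41 and −2.10. They had fallen already on the blank particle, since C1qa had a log2 fold change of −1.64 in MDSC-NP-Blk and −4.05 in CITED against MDSC. By contrast Cd68, a lysosomal glycoprotein of macrophages, rose (12943, 11589, 13427, and 12886 against 7473, 7211, 7391, and 6984, log2 fold change 0.81 ± 0.049 (SE), adjusted p = 6.27e-15). The scavenger receptor gene Msr1 (0.50), Trem2 (0.41), Ms4a6d (0.56), and the monocytic factor gene Irf8 (0.24) rose by less. Of 20 genes described in lipid-associated macrophages, 16 rose and 3 fell with a median of 0.39. Several of these are lysosomal genes or are listed below with lipids. Their largest rise was that of Gpnmb, a transmembrane glycoprotein gene at chr6:49013426-49047863, which had 47187, 47122, 47491, and 45834 in CITED and 19629, 20799, 20690, and 18646 in MDSC-NP-Blk (log2 fold change 1.23 ± 0.044 (SE), adjusted p = 7.58e-21). The cystatin gene Cst7 of the same list fell (498, 572, 491, and 561 against 1202, 1094, 1137, and 1150, −1.11, adjusted p = 5.80e-14).

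Lysosomal genes rose broadly and by small amounts. Of 86 tested, 60 rose and 4 fell against backgrounds of 10.5% and 11.4%, with a median log2 fold change of 0.28 and only 2 called higher and 1 lower. Summed normalized counts were 1045066, 1034709, 1033590, and 1007852 in CITED and 761076, 746145, 728946, and 750734 in MDSC-NP-Blk, and the counts of rising genes were 58 without blank replicates 1 and 4 and 54 without replicates 2 and 3. Membrane proteins rose in 17 of 19 cases and subunits of the proton pump, which acidifies the lysosome, in 15 of 16. Proteases rose in 11 of 16 cases, and glycosidases, lipases, and their cofactors in 17 of 31, with 3 falling. None of the 4 genes of the TFEB family, which direct lysosomal transcription, passed the test, but 1 rose with DESeq2 and 2 rose without blank replicates 2 and 3.

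Among the proteases, whose largest log2 fold change was 0.919 in another gene, Ctsd encodes the aspartic protease cathepsin D. It had 126466, 123279, 122930, and 117417 in CITED and 67125, 64920, 63685, and 65950 in MDSC-NP-Blk (log2 fold change 0.91 ± 0.038 (SE), adjusted p = 8.16e-19), although 37.1% of its words occur in other genes. The cysteine protease genes Ctsl (0.70, adjusted p = 5.20e-14) and Ctsb (0.56, adjusted p = 4.94e-13) rose as well, as did Psap (0.49, adjusted p = 6.18e-13), whose product is cut into activators of sphingolipid hydrolases. Naglu, which encodes an enzyme of heparan sulfate breakdown, rose by 0.66. Arsb, the gene of arylsulfatase B, was 1 of the 4 lysosomal genes that fell, from 1548 ± 267 to 721 ± 32.3 (log2 fold change −1.11 ± 0.084 (SE), adjusted p = 1.92e-12). Among pump subunits, Atp6v0d2, an isoform of osteoclasts and macrophages, had 2981, 3254, 2969, and 3121 and 1537, 1400, 1424, and 1426 (log2 fold change 1.09 ± 0.057 (SE), adjusted p = 1.38e-16), and Atp6v0c (0.48, 28.8% shared words) and Atp6v1c1 (0.53) rose by less. Slc11a1, a metal ion exporter of the phagosome, had 3609, 3642, 4000, and 3923 and 2134, 2148, 2112, and 1955 (log2 fold change 0.86 ± 0.054 (SE), adjusted p = 1.48e-14).

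The TFEB family binds E-boxes, searched here as CACGTG, which reads the same on both strands. The motif lay within 250 bases before 10 of the 86 lysosomal genes (11.6%), 1153 of 17635 genes tested (6.54%), 9 of the 60 lysosomal genes that rose, and 9.52% of all genes that rose. The window of Ctsd (chr7:141941776-141941855 on the minus strand), 80 to 1 bases before the start, is printed as that of a protease gene that rose, with the E-box in capitals.
Ctsd: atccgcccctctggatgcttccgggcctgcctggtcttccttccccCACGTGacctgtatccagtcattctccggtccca

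Autophagy genes moved little, 9 of 38 rising and 4 falling (backgrounds 10.5% and 11.4%). The cargo receptor gene Sqstm1 (16868, 16611, 16828, and 16675 against 12047, 12375, 12145, and 11989, log2 fold change 0.46 ± 0.043 (SE), adjusted p = 1.94e-10), Gabarapl1 of the Atg8 family (0.47, adjusted p = 3.53e-08), and Tecpr1, which tethers autophagosomes to lysosomes (0.69, adjusted p = 9.01e-11), rose. Bnip3l, a hypoxia-responsive mitophagy receptor gene, fell (−0.35, adjusted p = 1.38e-05, 28.4% shared words).

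Of 21 iron and antioxidant genes, many of them targets of the factor Nrf2, 12 rose and 3 fell, with a median of 0.29 (backgrounds 10.5% and 11.4%). Ferritin genes rose and the transferrin receptor gene fell. Ferritin heavy chain (Fth1) had 558176, 546528, 528715, and 527820 normalized counts in CITED and 375240, 343418, 330363, and 349706 in MDSC-NP-Blk (log2 fold change 0.63 ± 0.038 (SE), adjusted p = 8.16e-15). The light chain gene Ftl1 had 287442, 272934, 281468, and 283684 and 182843, 166974, 163196, and 169897 (log2 fold change 0.72 ± 0.04 (SE), adjusted p = 6.64e-16), with 12.9% and 86.7% of their words shared with other genes. The peroxiredoxin gene Prdx1 had 44323, 39691, 37540, and 37406 and 22854, 21982, 22503, and 20450 (log2 fold change 0.86 ± 0.049 (SE), adjusted p = 2.32e-15, 23% shared words). The transferrin receptor gene Tfrc, at chr16:32427556-32451612, moved the other way, with 1010, 1092, 904, and 1047 and 2321, 2520, 2534, and 2393 (log2 fold change −1.27 ± 0.059 (SE), adjusted p = 7.14e-18). Fth1 and Tfrc moved in the same directions on the blank particle. Against MDSC, Fth1 had log2 fold changes of 1.28 in MDSC-NP-Blk and 1.91 in CITED, and Tfrc had −1.29 and −2.56.

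Of 22 genes of cholesterol export and lipid storage, 9 rose and 3 fell (backgrounds 10.5% and 11.4%). The cholesterol transporters of the lysosome, Npc1 (0.39, adjusted p = 1.94e-06) and Npc2 (0.47, adjusted p = 4.23e-09), the acid lipase gene Lipa (0.50, adjusted p = 8.61e-09), the lipid droplet coat gene Plin2 (0.57, adjusted p = 4.36e-11), and the fatty acid receptor gene Cd36 (1015, 977, 970.3, and 952 against 565, 509.6, 566, and 616, 0.80, adjusted p = 3.71e-10) rose. The cholesterol exporter gene Abca1 (−0.46, adjusted p = 0.000174), the nuclear receptor gene Pparg (−0.65, adjusted p = 1.24e-05), and lipoprotein lipase (Lpl, −0.33, adjusted p = 1.47e-05) fell.

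Glycolytic genes were lower in CITED than in MDSC-NP-Blk (backgrounds 10.5% rising and 11.4% falling). Of 27 tested, 22 fell and 1 rose, including 15 of 16 enzymes (10 without blank replicates 1 and 4), with a median log2 fold change of −0.31 and 1 called. Summed normalized counts were 766125, 714544, 764888, and 748159 in CITED and 1029518, 856066, 812231, and 1043827 in MDSC-NP-Blk, so the groups did not overlap, but the blank replicates 1 and 4 lay well above replicates 2 and 3. Without replicates 1 and 4 the list had 17 falls and a median of −0.23, and without replicates 2 and 3 it had 23 falls and a median of −0.47. The glucose transporter gene Slc2a3, at chr6:122704768-122778599, had 7064, 6562, 7869, and 7441 in CITED (log2 fold change −1.33 ± 0.08 (SE), adjusted p = 6.11e-15), below the lowest blank value. Hexokinase 1 (Hk1, −0.52, adjusted p = 2.69e-10) and phosphofructokinase (Pfkp, −0.54, adjusted p = 3.00e-10) fell, and the isomerase gene Gpi1 had 58919, 53996, 60892, and 58683 and 92545, 76377, 71662, and 94082 (log2 fold change −0.53 ± 0.059 (SE), adjusted p = 1.13e-08). Pdk1, which diverts pyruvate from mitochondria, had 1951, 1936, 2073, and 2017 and 3216, 2947, 2732, and 3573 (log2 fold change −0.64 ± 0.065 (SE), adjusted p = 1.08e-09), and Egln3, an oxygen sensor gene induced by hypoxia, fell (−0.66, adjusted p = 1.57e-09). The 1 list member that rose was Hif1a, the hypoxia-inducible factor gene (14463, 15987, 14905, and 15045 against 10015, 12126, 12905, and 10394, 0.41, adjusted p = 1.51e-06). Against MDSC without particles, Slc2a3 had a log2 fold change of 0.40 in MDSC-NP-Blk and −0.94 in CITED, and Gpi1 had 0.47 and −0.053.

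Serine and one-carbon metabolism, which mTOR complex 1 drives through the transcription factor ATF4, was lower. Of 9 enzyme genes 5 fell, 3 of them called, and none rose (backgrounds 11.4% falling and 10.5% rising). Phgdh, which opens serine synthesis, had 495, 615, 579, and 545 in CITED and 1295, 1473, 1485, and 1176 in MDSC-NP-Blk (log2 fold change −1.28 ± 0.076 (SE), adjusted p = 4.15e-15, 73.5% shared words), Mthfd1l, a mitochondrial formate producer, had 558, 610.2, 563, and 636 and 1291, 1048, 978, and 1447 (log2 fold change −1.003 ± 0.09 (SE), adjusted p = 8.22e-11), and Shmt1 fell by 0.86 on the log2 scale. The other ATF4 targets did not follow. Atf5, a stress factor gene, was called higher (2671, 2678, 2752, and 2827 against 1421, 1279, 1237, and 1463, log2 fold change 1.02 ± 0.067 (SE), adjusted p = 5.20e-14). The amino acid transporter genes Slc3a2 (0.49, adjusted p = 1.38e-10) and Slc7a11 (0.58, adjusted p = 2.22e-07) rose, and 4 of 11 regulators rose (2 without blank replicates 2 and 3) with none falling, including Cebpb (0.50, adjusted p = 1.65e-09). Atf4 itself had 3292, 3056, 3135, and 3303 and 2999, 2663, 2660, and 2994 (0.18, adjusted p = 0.0138), and this rise was lost without blank replicates 2 and 3 (adjusted p = 0.306). Of 14 tRNA synthetase genes 2 rose and 1 fell.

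Nucleotide synthesis fell mainly where deoxynucleotides are made. For this list and the lipid lists after it, backgrounds were 10.5% rising and 11.4% falling. Of 32 genes 17 fell and 5 rose, and 8 of 9 deoxynucleotide genes fell. The ribonucleotide reductase genes Rrm2 (819, 710.5, 756, and 812 against 1657, 1819, 1914, and 1720, log2 fold change −1.20 ± 0.062 (SE), adjusted p = 1.35e-16) and Rrm1 (1344, 1236, 1282, and 1162 against 2237, 2782, 2861, and 2496, log2 fold change −1.05 ± 0.066 (SE), adjusted p = 1.57e-14) and the thymidine kinase gene Tk1 (−1.05, adjusted p = 2.61e-12) were called. Purine synthesis genes fell in 7 of 14 cases and rose in 3, as in Impdh2, the guanine branch enzyme (−0.49, adjusted p = 1.77e-07, 77.3% shared words), and Paics (−0.38, adjusted p = 2.29e-06). Sterol synthesis did not shift as a list, with 5 of 28 rising, among them the desaturase gene Sc5d (0.45, adjusted p = 6.27e-07), and 3 falling, among them Fdps (−0.57, adjusted p = 9.82e-12, 72.3% shared words). Its split was 3 up and 5 down without blank replicates 1 and 4. In fatty acid synthesis 5 of 21 fell and 2 rose, or 3 fell and 2 rose without blank replicates 2 and 3. The desaturase gene Scd2 (−0.53, adjusted p = 2.52e-10) and the acyltransferase gene Agpat2 (−0.58, adjusted p = 6.85e-10) fell.

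The translation machinery changed little on the log2 scale. Its counts stand beside 10.5% of all genes tested rising and 11.4% falling. Of 82 cytosolic ribosomal protein genes, which share many words with pseudogenes, 30 fell and 2 rose, with a median of −0.11 and none called. This count rested on the blank libraries. In all, 16 fell and 4 rose without replicates 1 and 4, and 54 fell and none rose without replicates 2 and 3. Rpl3 had 18387, 17508, 16899, and 16502 in CITED and 24300, 23003, 23339, and 23410 in MDSC-NP-Blk (log2 fold change −0.44 ± 0.044 (SE), adjusted p = 8.27e-10), Rps6, whose protein is the classic target of S6 kinase, had 28749, 28631, 25079, and 27848 and 34955, 32784, 32668, and 33058 (log2 fold change −0.27 ± 0.046 (SE), adjusted p = 1.64e-05), and Rpl22l1 (−0.51, adjusted p = 1.75e-06) and Rpl15 (−0.27, adjusted p = 2.47e-05) fell as well. Of 67 ribosome biogenesis genes 6 rose and 8 fell, a split that was 3 and 9 without blank replicates 1 and 4 and 14 and 7 without replicates 2 and 3. Noc2l (0.38, adjusted p = 1.50e-05) and the 60S maturation factor gene Bop1 (0.42, adjusted p = 0.000167) rose. In the Myc network 4 of 8 genes fell, and the Max partner gene Mxd3 was called (92.8, 42.8, 58.8, and 57.1 against 212, 162, 147, and 112, log2 fold change −1.33 ± 0.19 (SE), adjusted p = 1.93e-06). Of 47 translation factors 6 rose and 3 fell, and the elongation factor 2 kinase gene Eef2k fell (449, 503, 552, and 528 against 784, 692, 749, and 729.7, −0.54, adjusted p = 1.80e-06).

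Mitochondrial lists also depended on which blank libraries entered (backgrounds with all libraries 10.5% rising and 11.4% falling). Nuclear genes of oxidative phosphorylation had 8 of 76 rising and 5 falling, but 29 and 3 without blank replicates 1 and 4, and 2 and 9 without replicates 2 and 3. Mitochondrial ribosome genes had 11 of 79 rising and 4 falling, then 23 and 0, and 4 and 7. Of 13 genes of the mitochondrial genome 3 fell, namely mt-Co3 (−0.46, adjusted p = 2.68e-05), mt-Atp8 (−0.66, adjusted p = 3.15e-07), and mt-Atp6 (−0.32, adjusted p = 0.00239), whereas none rose and 7 fell without blank replicates 1 and 4 and 4 rose and 4 fell without replicates 2 and 3. Of the words of mt-Co3 and mt-Atp6, 99.9% and 99.5% occur elsewhere in the transcriptome, so their counts are uncertain.

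Transcripts of the mTOR pathway itself were close to level. Of 75 genes 11 rose, 10 fell, and none was called, with a median of 0.02. Over all genes tested 10.5% rose and 11.4% fell, and over those with a mean above 50, 17.1% and 17.9%. Among 10 complex subunits, Mtor had 821, 940.3, 897, and 899 in CITED and 713, 905, 863, and 858 in MDSC-NP-Blk (0.088, adjusted p = 0.508), and Rptor, the scaffold of complex 1 (563 ± 60.8 against 558 ± 29, 0.012, adjusted p = 0.981), and Rictor, that of complex 2 (−0.15, adjusted p = 0.262), also overlapped between groups, although Rictor passed without blank replicates 1 and 4 (−0.26, adjusted p = 0.0214). The shared subunit gene Mlst8 fell (236, 292, 346, and 306 against 381, 369.6, 442, and 377, −0.41, adjusted p = 0.00284), and Prr5l of complex 2 rose (0.38, adjusted p = 0.000275). Fkbp1a, the gene of the rapamycin-binding protein, had 6984, 6522, 6622, and 6872 and 6913, 5497, 5397, and 6911 (0.13, adjusted p = 0.155), with CITED values inside the range of the blank replicates apart from replicate 1. It passed without blank replicates 1 and 4 (0.31, adjusted p = 1.12e-06) but not without replicates 2 and 3 (−0.034, adjusted p = 0.744). Upstream, Tsc1, an inhibitor of the pathway, rose (0.36, adjusted p = 0.00199), as did 6 of 27 genes of amino acid sensing at the lysosome, where 3 fell. Those that rose were led by Fnip2 (1791, 1645, 1869, and 1855 against 1128, 1218, 1301, and 1247, log2 fold change 0.55 ± 0.063 (SE), adjusted p = 1.65e-08) and its partner folliculin (Flcn, 0.46, adjusted p = 5.04e-06), and included Lamtor1 (0.30), Lamtor3 (0.35), and the Rag GTPase gene Rragc (0.24). Sesn3, a stress-induced inhibitor, fell with overlap (33.9, 44, 79.9, and 51.3 against 121, 107, 76.1, and 86.5, −0.89, adjusted p = 0.00246). Among PI3K and AKT genes and inhibitors 2 of 19 rose and 4 fell. Ddit4, a hypoxia-induced inhibitor of mTOR complex 1, had 1432, 1461, 1772, and 1697 and 3005, 2370, 2261, and 3554 (log2 fold change −0.81 ± 0.093 (SE), adjusted p = 1.81e-08). The kinase genes Sgk1 (0.42, adjusted p = 2.15e-05) and Akt1 (0.19, adjusted p = 0.0023, 80.5% of its length overlapped on the opposite strand) rose, and of 14 substrates and outputs 2 fell (4 without blank replicates 2 and 3), among them the translation inhibitor gene Pdcd4 (−0.47, adjusted p = 2.38e-05).

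**Figure D4:**
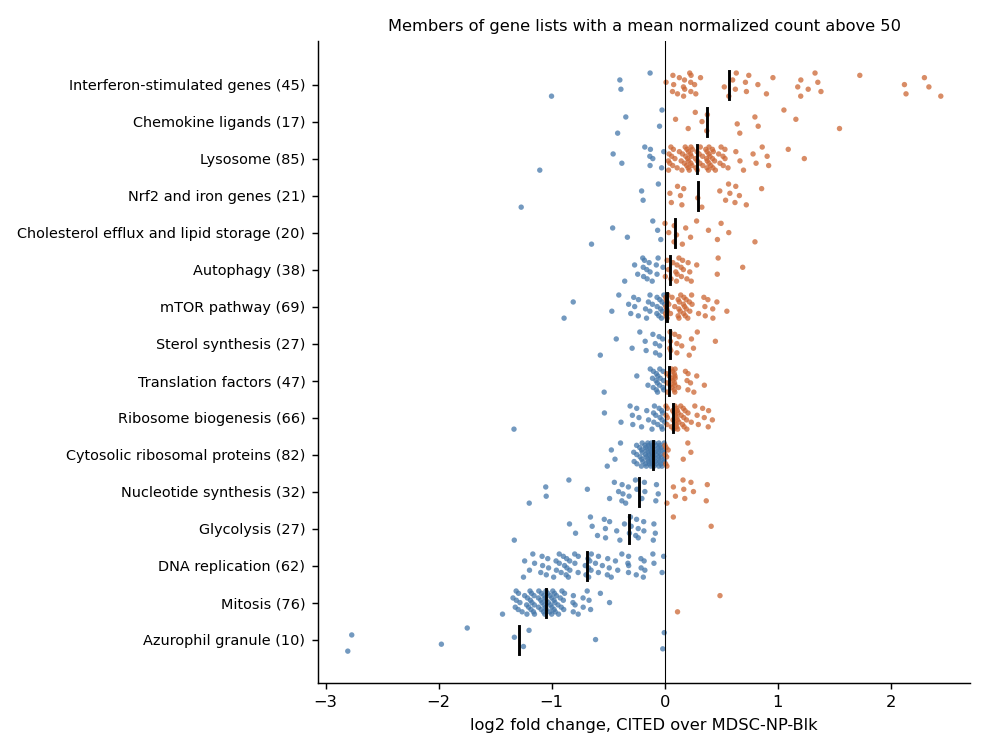
Log2 fold change in CITED over MDSC-NP-Blk for the members of 16 gene lists with a mean normalized count above 50 (number in parentheses), orange above 0 and blue below, with black bars at the list medians. Medians range from 0.57 for interferon-stimulated genes to −1.29 for the azurophil granule, and those of the mTOR pathway, autophagy, sterol synthesis, and translation factors lie near 0.

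Cell cycle genes were lower in CITED. Of 76 mitotic genes 74 fell, 45 of them called, and 1 rose, with a median log2 fold change of −1.05 against a background of 11.4% falling and 2.00% called lower. Summed normalized counts were 44654, 44490, 46041, and 45180 in CITED, 81931, 91028, 93025, and 83299 in MDSC-NP-Blk, and 139938, 124395, 135863, and 134638 in MDSC. The fall covered 23 of 25 cyclins, kinases, and regulators, all 25 chromosome and kinetochore genes, and all 26 spindle and cytokinesis genes, and 73 fell both without blank replicates 1 and 4 and without replicates 2 and 3. Top2a, the topoisomerase of dividing cells at chr11:98883769-98915062, had 2582, 2482, 2649, and 2461 in CITED and 5071, 6258, 6400, and 5286 in MDSC-NP-Blk (log2 fold change −1.18 ± 0.06 (SE), adjusted p = 1.13e-16). Cdk1, the kinase that drives entry into mitosis, had 932, 787, 929, and 838 and 1774, 1887, 1820, and 1737 (log2 fold change −1.05 ± 0.064 (SE), adjusted p = 6.82e-15). The kinetochore gene Nuf2 (349.9, 356, 308, and 356 against 835, 963, 1023, and 877, log2 fold change −1.44 ± 0.082 (SE), adjusted p = 1.77e-15) fell the most of the list. Kif11 (−1.22) and Tpx2 (−1.15) of the spindle, Nusap1 (−1.16), the condensin gene Ncapd2 (−1.12), Plk1 (−1.09), and cyclin A2 (Ccna2, −0.99) showed similar sizes, with adjusted p-values from 6.09e-16 to 1.42e-14. The exception was Pttg1, the securin gene, which rose (707, 659, 676, and 672 against 477, 430.3, 471, and 563, 0.49, adjusted p = 5.21e-05).

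Of 62 DNA replication genes 53 fell and none rose (backgrounds 11.4% and 10.5%), 11 were called, and the median was −0.69. Summed counts were 30113, 30336, 30268, and 30405 in CITED and 44317, 47486, 48398, and 43060 in MDSC-NP-Blk. The replicative helicase genes Mcm3 (1122, 1028, 1106, and 1153 against 1964, 2194, 2218, and 1834, log2 fold change −0.90 ± 0.063 (SE), adjusted p = 2.44e-13), Mcm6 (−0.84), and Mcm7 (−0.87), the chromatin assembly gene Chaf1a (−0.93), the ligase gene Lig1 (−0.89), and the repair genes Brca1 (−1.03, adjusted p = 1.88e-09) and Rad51ap1 (−1.25, adjusted p = 9.83e-10) fell. Genes of the G1 to S transition fell in 15 of 26 cases and rose in 3. Cyclin E2 (Ccne2, 158, 137, 111, and 161 against 337, 336, 345, and 373, log2 fold change −1.29 ± 0.12 (SE), adjusted p = 1.07e-10), the repressors E2f7 (−1.10) and E2f8 (−1.03), the phosphatase gene Cdc25a (−0.96), cyclin D3 (Ccnd3, −0.29), and the inhibitor gene Cdkn2c (−0.87) fell. Of 7 CDK inhibitor genes 2 rose and 3 fell, Cdkn2c being among the latter. Those that rose were Cdkn2b, which encodes p15 (228, 197, 219, and 189.6 against 149, 125, 92.8, and 132, 0.74, adjusted p = 0.000827), and Cdkn1a, which encodes p21 (0.19, adjusted p = 0.00344). Cdkn1a no longer passed without blank replicates 2 and 3 (adjusted p = 0.141).

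Promoters of mitotic genes often hold CCAAT boxes, bound by the factor NF-Y, and the cell cycle homology region, searched here as TTTGAA on both strands. The CCAAT box was found on either strand within 250 bases before 36 of the 76 mitotic genes (47.4%) and 35.1% of all genes, and TTTGAA before 19 of the 76 (25%) and 14.5% of all genes, although 25% of the interferon-stimulated genes held TTTGAA as well. The E2F-type letters TTCCCGC were found before 8 of the 62 replication genes (12.9%) and 5.18% of all genes. Cdk1 (80 to 1 bases before the start, chr10:69188769-69188848 on the minus strand) and Top2a (180 to 21 bases before it, chr11:98915062-98915221 on the minus strand) are shown because each holds both elements, with the matches on either strand in capitals.
Cdk1: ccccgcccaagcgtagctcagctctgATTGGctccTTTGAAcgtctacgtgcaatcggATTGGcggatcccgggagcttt
Top2a: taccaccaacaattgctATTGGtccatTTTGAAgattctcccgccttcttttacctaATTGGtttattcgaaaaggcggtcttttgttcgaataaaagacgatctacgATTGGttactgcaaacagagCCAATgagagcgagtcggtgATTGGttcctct

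**Figure D5:**
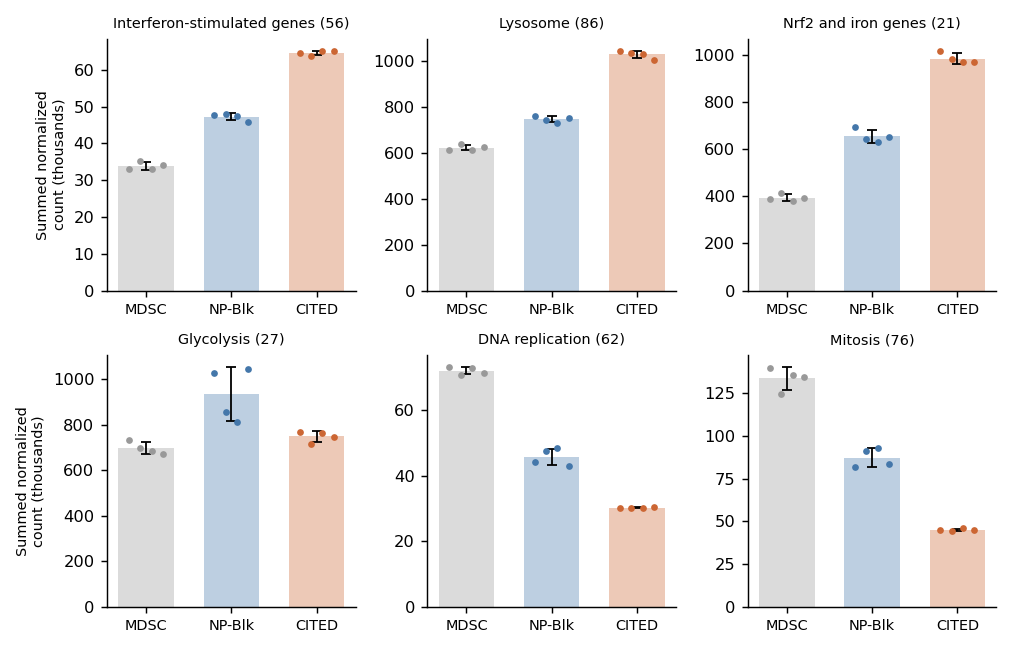
Summed normalized counts (axis in units of 1000) for 6 gene lists (number of genes tested in parentheses) in MDSC, MDSC-NP-Blk, and CITED, with bars at the mean, whiskers for the SD of 4 libraries, and a point per library. CITED lies above MDSC-NP-Blk for interferon-stimulated, lysosomal, and Nrf2 and iron genes and below it for glycolysis, DNA replication, and mitosis, with no overlap between CITED and MDSC-NP-Blk libraries in any panel. For glycolysis the sums of MDSC (672048 to 733931) overlap those of CITED (714544 to 766125).

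Chemokine ligand genes rose in 12 of 25 cases and fell in 1 (backgrounds 10.5% and 11.4%), with 4 called higher and a median of 0.37. Cxcl3, a neutrophil attractant, had 34001, 32479, 30439, and 32870 in CITED and 16232, 15774, 15701, and 14815 in MDSC-NP-Blk (log2 fold change 1.05 ± 0.046 (SE), adjusted p = 1.41e-18). Ccl5, an attractant of T cells and monocytes, had 542, 585, 523, and 567 and 263, 205, 198, and 334 (log2 fold change 1.16 ± 0.12 (SE), adjusted p = 4.74e-09). The abundant Ccl6 had 266453, 239865, 241158, and 246482 and 161763, 158049, 156793, and 151017 (log2 fold change 0.66 ± 0.04 (SE), adjusted p = 8.17e-15). Ccl9 (0.83), Ppbp (0.80), and Cxcl2 (0.37) rose, and Ccl22, which attracts regulatory T cells, fell (1579, 1481, 1526, and 1528 against 2099, 2036, 2115, and 1914, −0.42, adjusted p = 4.97e-07). Cxcl3 had risen on the blank particle too, by 2.17 over MDSC, against 3.22 in CITED. Of 12 chemokine receptor genes 2 rose and 2 fell, against the same backgrounds. Their summed counts were 45728 to 47280 in CITED and 42334 to 44127 in MDSC-NP-Blk. Ccr1 (0.32, adjusted p = 1.56e-06) was 1 of the 2 that rose. Ccr2, which recruits monocytes to inflamed tissue (1693, 1573, 1501, and 1562 against 2034, 2314, 2477, and 2169, log2 fold change −0.51 ± 0.061 (SE), adjusted p = 4.09e-08), and Cxcr4, which retains cells in the marrow (−0.35, adjusted p = 8.91e-07), fell.

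Inflammatory cytokines and regulators rose in 19 of 52 cases and fell in 3 (backgrounds 10.5% and 11.4%), or in 17 and 8 without blank replicates 1 and 4 and in 23 and 1 without replicates 2 and 3. Of 17 Toll-like receptor and inflammasome genes 7 rose and none fell. The co-receptor gene Cd14 had 58376, 56026, 56506, and 57201 in CITED and 43336, 46518, 46460, and 41140 in MDSC-NP-Blk (log2 fold change 0.36 ± 0.044 (SE), adjusted p = 6.43e-08), and the nucleic acid receptor genes Tlr7 (0.46, adjusted p = 8.28e-06) and Tlr13 (0.40, adjusted p = 2.37e-06) rose. The interleukin-12 subunit gene Il12a (271, 267, 265, and 318 against 187, 155, 153, and 184, 0.73, adjusted p = 0.000209) and the interleukin-1 receptor antagonist gene Il1rn (0.30, adjusted p = 0.000288) rose. The prostaglandin synthase gene Ptgs2 fell with overlap (456, 468, 619, and 552 against 667, 958, 878, and 605, −0.57, adjusted p = 0.000249), and its adjusted p was 0.0885 without blank replicates 2 and 3. In the pathway of IL-6, which all groups received, none of the 11 receptor and signaling genes passed the test, although 4 of them fell without blank replicates 1 and 4. Of 16 targets 7 rose and 3 fell.

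Immunosuppressive mediators rose in 15 of 40 cases and fell in 5 (backgrounds 10.5% and 11.4%), with none called. Their summed normalized counts went the other way, 1170169 to 1275531 in CITED and 1315249 to 1440333 in MDSC-NP-Blk. Sums of the 19 secreted factors and enzymes, of which 7 rose and 4 fell, were lower in CITED (1025877 to 1128737 against 1194695 to 1315971). Those of the 21 ligands and receptors were higher (144292 to 149610 against 120554 to 126624). Cd274, the gene of PD-L1, had 5663, 6202, 6210, and 6218 in CITED and 4745, 4605, 4940, and 4950 in MDSC-NP-Blk (log2 fold change 0.34 ± 0.05 (SE), adjusted p = 2.90e-06). Tgfb1, the gene of transforming growth factor β1, had 16552, 16228, 17365, and 17997 and 14432, 14327, 14878, and 13582 (log2 fold change 0.25 ± 0.046 (SE), adjusted p = 7.21e-05). Both rose without overlap, by 1.26-fold and 1.19-fold. The arginase gene Arg1 fell with overlap (12879, 11752, 12244, and 12111 against 17496, 13714, 12408, and 18348, −0.34, adjusted p = 0.00115), and without blank replicates 1 and 4 its log2 fold change was −0.091 (adjusted p = 0.243). Pvr, the gene of CD155, had 337, 325, 359.7, and 341 and 388, 386, 391, and 454 (−0.25, adjusted p = 0.0811) and did not pass, and Vsir, the gene of VISTA, differed by less than the spread between replicates (23847 ± 593 and 23898 ± 999, −0.003, adjusted p = 1). Fasl had no count in the 8 libraries and Il10 was counted in 1 blank library only, so changes in these were not detectable at this depth. Cx3cr1, a receptor gene of patrolling monocytes, was low in both groups (23.5 ± 8.25 and 43.5 ± 16.7, −0.89, adjusted p = 0.096). Among the 21 ligands and receptors of the list 8 rose and 1 fell. Fcgr2b, an inhibitory Fc receptor gene, had 23418, 22485, 23556, and 22840 and 16310, 16020, 16599, and 15416 (log2 fold change 0.52 ± 0.044 (SE), adjusted p = 1.99e-11). Cd200r1 rose by 0.61, and Lilrb4a rose by 0.75, with all of its words shared with a near-identical gene. The inhibitory lectin gene Clec12a fell (4970, 4933, 4481, and 4655 against 8167, 8407, 8588, and 7841, log2 fold change −0.79 ± 0.049 (SE), adjusted p = 1.01e-14), and galectin 3 (Lgals3) rose (0.48, adjusted p = 9.95e-10).

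Counts of MHC genes stand beside 10.5% of all genes tested rising and 11.4% falling. Among genes with a mean above 50, the shares were 17.1% and 17.9%. Of 12 MHC class I genes 8 rose and 1 fell (5 rose without blank replicates 2 and 3), as in H2-D1 (63143, 61694, 61973, and 61834 against 45428, 42132, 40800, and 44109, log2 fold change 0.53 ± 0.043 (SE), adjusted p = 9.34e-12, 28.5% shared words) and H2-T23, the Qa-1 gene (0.49, adjusted p = 4.00e-09). Of 10 MHC class II genes 2 rose and 4 fell (2 and 1 without blank replicates 1 and 4), among them the invariant chain gene Cd74 (17024, 17039, 16821, and 16893 against 21706, 20111, 20140, and 20161, log2 fold change −0.28 ± 0.047 (SE), adjusted p = 2.16e-05).

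Markers of cells other than MDSCs differed as well. Of 14 mast cell, basophil, and eosinophil markers 10 fell (background 11.4%), 6 of them called, and none rose, with Cma1 at 0 in all 8 libraries. Summed counts were 17747 to 18310 in CITED and 38489 to 44572 in MDSC-NP-Blk. The eosinophil granule genes Prg2 (6191, 5909, 5915, and 5916 against 14469, 15987, 15710, and 14534, log2 fold change −1.34 ± 0.049 (SE), adjusted p = 1.17e-20) and Epx (3477, 3846, 3935, and 3702 against 10710, 13090, 13095, and 9814, log2 fold change −1.64 ± 0.072 (SE), adjusted p = 1.87e-18) and the basophil protease gene Prss34 (−1.06, adjusted p = 1.00e-17) led the list. Ear1, an eosinophil-associated ribonuclease gene among the largest falls, had 92.8, 88, 133, and 71.6 and 342, 496, 537, and 283 with 74.5% of its words shared. Of 11 B and plasma cell markers 5 fell, 4 of them called, with summed counts of 363 to 385 in CITED and 755 to 931 in MDSC-NP-Blk. They included Igkc (36.4, 24.5, 40, and 15.5 against 99.5, 110.3, 133, and 83, −1.89, adjusted p = 4.81e-07), Cd79b (−1.52, adjusted p = 5.01e-06), and Ighm (−0.97, adjusted p = 1.49e-09). None of 13 T and NK cell markers passed, and their summed counts were 67 to 113 in CITED and 70 to 94 in MDSC-NP-Blk. Of 12 erythroid and megakaryocyte markers 1 rose and 2 fell, and of 10 stromal and endothelial markers 2 fell. The mast cell, basophil, and eosinophil markers moved in the same direction as azurophil granule, progenitor, and cell cycle genes, and their part in those results was not tested.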

How the data were processed

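Poly(A)-enriched RNA of 12 libraries was sequenced, and the 8 libraries of CITED and MDSC-NP-Blk were compared, with group and replicate number taken from the sample titles. The deposited values are raw whole-number counts for each symbol, which the authors quantified with Salmon 1.4.0 against GRCm39 and summed per gene with tximport in R 4.3.2, without normalization. An entry with an empty symbol (0 counts) was left out. In R 4.3.3, counts of 17676 symbols with at least 2 counts over 12 libraries were scaled with TMM factors and tested with edgeR 4.0.16 (glmQLFit and glmQLFTest, group as the only term, all 12 libraries, robust off), with Benjamini-Hochberg adjustment over all genes. The study's own method, DESeq2 (1.42.0 here), was run as an alternative, as were limma-voom (limma 3.58.1), other scalings and filters, a replicate block, a transcript length correction, and fits without each library. Same-numbered CITED and MDSC-NP-Blk libraries deviated from their group means with correlations of 0.14, −0.057, 0.043, and 0.078 over 10556 genes, so the numbers were not taken as pairs.

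The compared members, the gene lists, and the naming rule were chosen with earlier results of these data known. The rule names the 12 largest called changes in each direction with a mean above 50 and no overlap, for each role of a list up to 3 rising and 3 falling genes by p-value, members of the mTOR pathway, genes whose product the study measured, and MDSC markers. A few genes that it names are not reported here. Totals of the 8 libraries ran from 20604809 to 37855478 counts. Shared words are words of 31 bases of a gene's transcript that occur in another gene (GENCODE M39), and whether counting used strand is not given in the sources used here. The test was checked on simulated counts.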

Additional observations from a re-analysis of the deposited data

Results flagged for a closer look

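In 18 of 396 sets of 4 libraries (4.55%), the highest or lowest library lay so far from the nearest other that its gap passed Dixon's critical limit, which chance passes in about 1 of 20 sets. All values are normalized counts, and no cause was tested.

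In CITED, replicate 1 was the highest for S100a8 (297480, others 245807 to 254019), Prg2 (6191, others 5909 to 5916), and Ly6c1 (30.1, others 10.6 to 13.3), and the lowest for Noc2l (1709, others 1806 to 1825), Tlr7 (1387, others 1483 to 1502), and Cd274 (5663, others 6202 to 6218). Replicate 2 was the lowest for Nusap1 (613, others 726 to 736), and replicate 3 for Nuf2 (308, others 350 to 356). Replicate 4 was the highest for Il12a (318, others 265 to 271) and the lowest for Ly6g (4368, others 4633 to 4655).

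In MDSC-NP-Blk, replicate 1 was the highest for Irf7 (531, others 468 to 472), Tecpr1 (1999, others 1664 to 1704), Rps6 (34955, others 32668 to 33058), Cd74 (21706, others 20111 to 20161), and Ighm (549.7, others 474 to 476). Replicate 3 was the highest for Mlst8 (442, others 369.6 to 381). Replicate 4 was the highest for Lrrc75b (87.7, others 50.04 to 53.6) and Pvr (454, others 386 to 391).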

How the results depend on the processing

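Counts of called genes between CITED and MDSC-NP-Blk stayed within 1.5 times of the main 469 under every alternative run. They ran from 397 to 546 (94 to 142 higher, 302 to 416 lower), and from 418 to 473 (86 to 118 higher, 327 to 362 lower) when 1 library was left out. The 416 is from a test against a log2 fold change of 0.5, which counted 539 genes by adjusted p alone. By the rule for called genes the highest number lower was 404, with limma-voom. Genes with an adjusted p below 0.05 numbered 3496 to 4269 (1684 to 2374 higher, 1812 to 2160 lower), and 3429 to 4004 (1608 to 1919 higher, 1809 to 2085 lower) without 1 library. DESeq2 called 113 higher and 379 lower. The transcript length correction gave 2374 higher and 1895 lower at an adjusted p below 0.05, against 1862 and 2021. With the replicate block, 441 genes were called (102 higher, 339 lower), and 4182 had an adjusted p below 0.05 (2022 higher, 2160 lower), but same-numbered libraries did not correlate above 0.1 in every pair. The fits without 2 blank libraries were chosen after seeing the data.

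Of 198 genes named, 189 passed the test and 182 of them did so in all 20 settings. Gbp5, Gvin-ps2, Atf4, mt-Atp6, Cdkn1a, Ptgs2, and Arg1 did not pass in at least 1 setting, and none of the 189 changed sign. The fold requirement for a call was not part of this count. Several called genes changed by less than 1 on the log2 scale in at least 1 setting, such as Ifit2 (−0.75), Mthfd1l (−0.77), and Ccl5 (0.89). Of those that did not pass, Csf1r passed in 3 settings (DESeq2, the length correction, and without blank replicates 2 and 3) and Rictor in 1. Fkbp1a (main 0.13) passed in 4, namely with the replicate block (adjusted p = 0.0411), without blank replicate 1 (0.0186), without blank replicate 4 (0.0246), and without both (1.12e-06), and was −0.034 without blank replicates 2 and 3. Vsir (main −0.003) was 0.0012 with DESeq2, 0.0011 with RLE factors, 0.0045 with upper-quartile factors, 0.039 with the length correction, −0.029 to 0.014 with 1 library left out, and 0.047 without blank replicates 1 and 4. Rptor (main 0.012) was −0.00999 without blank replicates 1 and 4 and −0.064 to 0.051 with 1 library left out. Ly6g (main −0.013) was −0.073 to 0.0297 with 1 library left out and 0.091 without blank replicates 1 and 4.

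Reads on the opposite strand cannot be assigned, and over 20% of the exon length lies under exons of the other strand in 30 of the named genes, with 97.9% in Igkc, 80.5% in Akt1, 55.7% in Mxd3, 50% in Chaf1a, 47.8% in Rpl22l1, 43.9% in Rlig1, and 42.5% in Pfkp. Each SE is from the edgeR fit, which takes in the spread between libraries as well as counting error.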

Other observations

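Some lists are not described above, and their counts stand beside backgrounds of 10.5% rising and 11.4% falling over all genes tested. Among genes with a mean above 50, as most members of these lists had, the shares were 17.1% and 17.9%. Immediate early genes, which respond to signals within minutes, had 5 of 26 rising and 3 falling. Genes of the unfolded protein response had 4 of 20 rising and 3 falling, and those of the pentose phosphate pathway had 1 of 7 rising and 1 falling. Dendritic cell genes rose in 4 of 16 cases and fell in 1. Of 15 complement genes 4 rose and 5 fell, the latter including C1qa, C1qb, and C1qc. Gm9843 was called higher with counts in 1 CITED library only and none in MDSC-NP-Blk, and was named after its values were seen.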
